A study of Mus musculus with 3 samples.

Results

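The genes described here encode the proteins of the cytosolic ribosome in murine bone marrow-derived macrophages (BMDMs). Members were taken by name from the gene list of the count files. A symbol was kept if it was *Rpl* or *Rps* with a number and an optional letter or final l, or was *Rplp0*, *Rplp1*, *Rplp2* or *Rpsa*. S6 kinase genes and names that mark pseudogenes were left out. Of 32285 genes, 84 matched and 83 had at least 20 unique molecular identifiers (UMIs, the tags that count single transcripts) over the kept cells, beside 15154 genes in all at that limit. These 83 members are 51 genes of the large subunit and 32 of the small subunit. They hold 77 standard ribosomal protein genes. The other 6 are paralogues, *Rpl3l*, *Rpl7l1*, *Rpl22l1*, *Rpl36al*, *Rpl39l* and *Rps27l*. The matched symbol that did not pass, *Rpl10l*, had 0 UMIs in each library, taken here to allow a count of up to 3.

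The BMDMs came from female C3H/HeN mice aged 6 to 8 weeks and were differentiated from bone marrow. The sources used here leave unclear whether the cultures came from a single pool of marrow or from separate animals. One library was untreated (UI, given the carrier buffer alone and collected with the later time point). Another was exposed to purified borrelial lipoproteins (*Bb*LP) at 1 µg/mL for 1 hour (LP1), and the third to the same dose for 4 hours (LP4). Each library pooled the cells of 3 cultures before capture, so there is 1 library per condition. A difference between conditions therefore cannot be told apart from a difference between library preparations, and no test between conditions was made. Levels are UMIs per 1000000 UMIs of the kept cells (CPM), and libraries are compared by the log2 ratio of CPM. The 95% intervals, exact Poisson for CPM, exact conditional binomial for ratios and exact binomial for shares, cover counting error only. A ratio of at most -0.5 is called lower and one of at least 0.5 higher, which is a rule of size (1.41-fold) and not a test.

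A ribosome joins a large subunit, which forms peptide bonds, to a small subunit, which reads the mRNA. Each holds 1 copy of most of its proteins, so their mRNAs are usually made and translated as a group. These mRNAs carry a 5′ terminal oligopyrimidine (TOP) tract, a run of C and T bases at the transcript start through which mTOR and Larp1 control their translation. In macrophages, ribosomal protein mRNAs are among the most abundant of the cell.

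Kept cells numbered 6071 in UI, 5065 in LP1 and 4670 in LP4, with 35688939, 52475723 and 61402275 UMIs and a median of 5133, 9343 and 11784 UMIs per cell. The median mitochondrial share was 1.97%, 2.84% and 3.17%, in the same order, so depth and mitochondrial share move with the conditions. Each of the 8 macrophage markers was detected in every library, from 35.0 CPM for *Mertk* in LP4 to 9684 CPM for *Lyz2* in LP1. Summed markers of neutrophils (9 genes) made 276 to 522 CPM, of dendritic cells (8 genes) 150 to 153 CPM and of stromal cells (6 genes) 4.29 to 19.7 CPM. Kept barcodes shared by a pair of libraries numbered 3 to 9.

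To show what the starts of these genes look like, 12 windows of 30 bases centred on the annotated start are printed from RefSeq on GRCm38.p6. They belong to members with high ratios to UI (*Rpl9*, *Rpl7a*, *Rps6*, *Rps2*), low ratios to UI (*Rpl41*, *Rpl37*, *Rps21*, *Rpl35*, *Rpl38*) and to paralogues whose levels parted (*Rpl22l1*, *Rps27l*, with *Rps27*), and were picked after the ratios were seen. Capitals mark the longest run of C and T in each window. An annotated start can lie some bases from the start used in these cells.
Rpl9: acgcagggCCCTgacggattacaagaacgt
Rpl7a: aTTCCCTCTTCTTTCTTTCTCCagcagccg
Rps6: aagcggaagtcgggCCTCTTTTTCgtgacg
Rps2: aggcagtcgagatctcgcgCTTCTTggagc
Rpl41: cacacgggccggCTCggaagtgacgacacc
Rpl37: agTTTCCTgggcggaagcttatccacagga
Rps21: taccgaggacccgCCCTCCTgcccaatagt
Rpl35: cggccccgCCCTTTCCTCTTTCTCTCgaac
Rpl38: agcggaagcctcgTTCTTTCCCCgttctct
Rpl22l1: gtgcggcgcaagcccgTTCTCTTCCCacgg
Rps27l: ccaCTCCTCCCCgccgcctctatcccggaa
Rps27: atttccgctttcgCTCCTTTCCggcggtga

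On the plus strand lie the windows of *Rpl7a* (chr2:26910792-26910821), *Rps2* (chr17:24720048-24720077), *Rpl37* (chr15:5116598-5116627), *Rps21* (chr2:180257364-180257393, the first of its 2 annotated starts), *Rpl38* (chr11:114668565-114668594), *Rpl22l1* (chr3:28805493-28805522) and *Rps27l* (chr9:66946071-66946100, also the first of 2). On the minus strand lie those of *Rpl9* (chr5:65391417-65391446), *Rps6* (chr4:86857353-86857382), *Rpl41* (chr10:128549154-128549183), *Rpl35* (chr2:39005117-39005146) and *Rps27* (chr3:90213634-90213663). The longest run was 21 bases in *Rpl7a* and 4 in *Rpl9*, both high in the treated libraries. Among genes low in the treated libraries it was 18 bases in *Rpl35* and 3 in *Rpl41*.

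RefSeq promoters matched 63 of the 83 members by symbol. A run of at least 7 C or T bases within the 40 bases around a start was present in 38 of these 63 (60.3%), against 27.5% of 27025 genes with a promoter. CCGGAAG, read on both strands of the 300 bases around a start and known as a core of ETS factor sites, occurred in 26 of 63 (41.3%) against 9.93%. AAGATGGC, known as a core of YY1 sites and read the same way, occurred in 6 of 63 (9.52%) against 3.19%. TATAAA, the core of the TATA box, read on the gene's strand only in a short stretch before the start, was found in 1 of 63 (1.59%) against 2.78%. Members with the C and T run had a median log2 ratio of -0.13 for LP1 over UI, and so had the 25 without it. For LP4 over UI the medians were -0.39 with the run and -0.33 without it, so the members with and without the run had similar ratios.

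Ribosomal protein mRNA made up a smaller part of the transcripts of *Bb*LP-treated BMDMs than of untreated cells. Members took 11.0% of all UMIs in UI, 9.51% in LP1 and 8.26% in LP4. The large subunit genes took 6.26%, 5.37% and 4.66%, and the small subunit genes 4.74%, 4.14% and 3.60%. Large subunit genes made 56.9%, 56.4% and 56.4% of member UMIs, so the split between the subunits was close to even across the libraries. Among the 100 genes with the highest CPM, 42 were members in UI, 35 in LP1 and 30 in LP4.

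The lower share was not a lower number of counted transcripts. Mean member UMIs per cell were 647 in UI, 985 in LP1 and 1085 in LP4, while all UMIs per cell were also higher in the treated libraries. Per cell, the median member share was 10.9% in UI (quartiles 9.25 and 12.6), 9.40% in LP1 (8.02 and 10.9) and 7.96% in LP4 (6.63 and 9.33). The 10th percentile of UI cells, 7.91%, was near the LP4 median, and the 90th percentile of LP4 cells, 10.8%, was near the UI median. Single cells of UI and LP4 thus overlapped in part, around shifted medians.

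**Figure D1:**
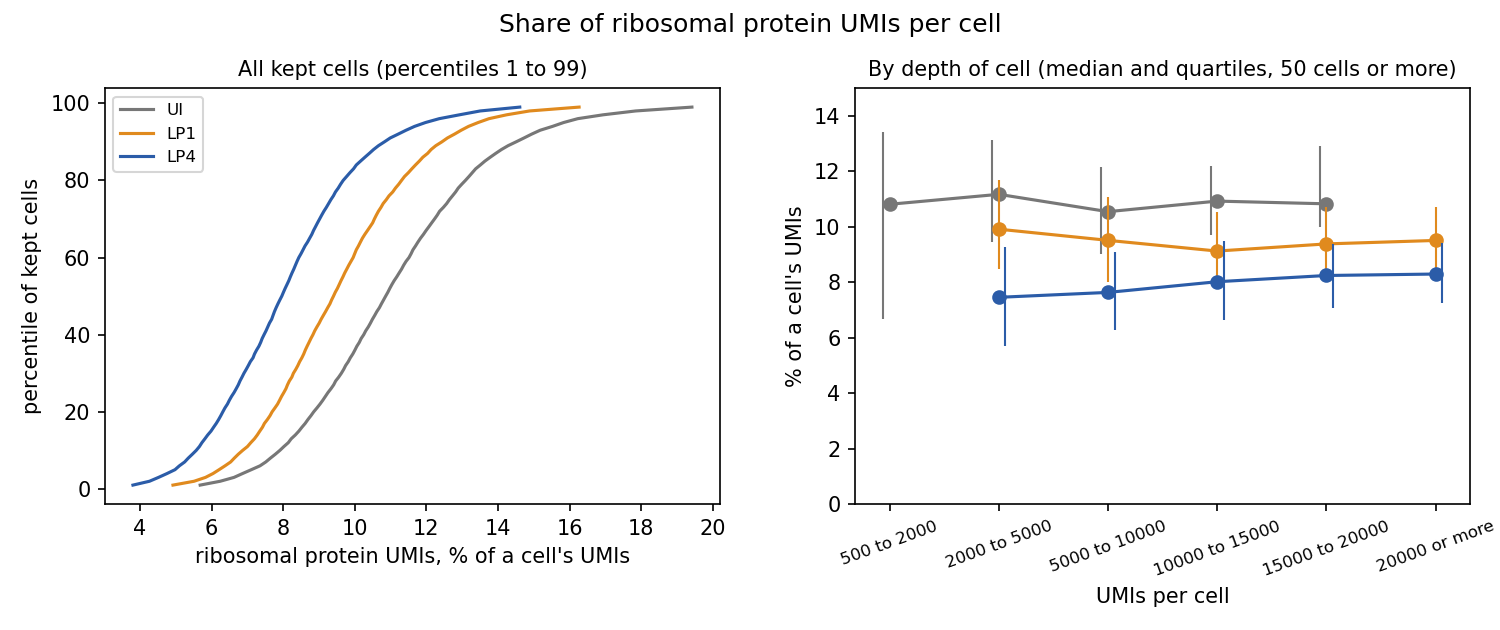
Share of a cell's UMIs that came from ribosomal protein genes, in percent. Left, the percentile of kept cells against the share for UI, LP1 and LP4, with medians of 10.9%, 9.40% and 7.96%. Right, the median (points) and quartiles (vertical lines) in cells grouped by their total UMIs, with groups under 50 cells left out. The order UI above LP1 above LP4 is seen at each depth where the 3 libraries have a point.

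The order of the libraries was also seen among cells of like depth. In cells with 5000 to 10000 UMIs the member share was 10.7% in UI, 9.64% in LP1 and 7.89% in LP4. In cells with 10000 to 15000 UMIs it was 11.0%, 9.28% and 8.25%. Cells with a mitochondrial share of 2% to 3% gave 11.4%, 9.19% and 8.17%. UI was the highest in each of the 5 mitochondrial bands, but below 1% the treated libraries were alike, at 8.24% in LP1 (27 cells) and 8.25% in LP4 (59 cells). Within LP1 the member share was higher with the mitochondrial share, from 8.24% below 1% to 10.8% at 4% to 5%. Within UI the share varied little with depth, from 10.7% to 11.4% over the groups between 2000 and 20000 UMIs.

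Cells with marker transcripts of other types or of division were a small part of each library. Cells with at least 0.2% of UMIs from 12 cell cycle genes numbered 272, 272 and 176, and their member share was 12.5% in UI, 10.6% in LP1 and 9.26% in LP4. Against cells below all marker limits in the same library, 79, 79 and 76 of the 81 members compared were higher in cycling cells, with medians of 0.21, 0.19 and 0.19 on the log2 scale. *Rps27* was the lowest member there in each library, at -0.18, -0.16 and -0.20. The share of all genes higher in cycling cells is not given here, so these counts cannot be read as particular to members. Cycling cells were also deeper, with medians of 7453.5, 13815.5 and 19830.5 UMIs, against 5094, 9178.5 and 11606.5 in cells below all marker limits. Cells with at least 0.3% of UMIs from the dendritic cell genes (89, 60 and 61) had member shares of 13.1%, 11.8% and 9.89%. Cells with at least 1% from the neutrophil genes (32, 24 and 29) had 16.4%, 16.3% and 14.0% of their pooled UMIs. Their medians per cell were 12.1% in UI, 13.4% in LP1 and 11.0% in LP4, so that LP1 was above UI there. Cells below all limits had 10.9%, 9.38% and 8.15% of pooled UMIs, close to the values over all cells. The limits were set after the distributions were seen.

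After 1 hour of *Bb*LP, the median log2 ratio of members to UI was -0.16, which is 0.11 below the median of all genes tested (-0.05). In cells with 5000 to 15000 UMIs this distance was smaller, at -0.036 (members -0.12, all genes -0.09). Of the 83 members, 21 were lower and 6 higher, and with TMM scaling 18 and 9 (background at 50 CPM or more 3.62% and 7.06%). Over all genes with at least 20 UMIs, 14.1% were lower and 8.73% higher. Over genes that reached 50 CPM in one of the pair, as nearly all members did, 5.14% were lower and 5.35% higher. Members thus held lower calls at 25.3%, above either background, and higher calls at 7.23%. The median over large subunit genes was -0.18 and over small subunit genes -0.13, a difference of -0.05 against a spread among members of 0.49 (SD).

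After 4 hours the median log2 ratio of members to UI was -0.41, which is 0.24 below that of all genes (-0.16). Under TMM and median-of-ratios scaling, which move the median of all genes by 0.17 and 0.21, it was -0.24 and -0.20, still below 0, with the distance to all genes the same by construction. In cells with 5000 to 15000 UMIs the distance was -0.17 (members -0.44, all genes -0.27). Of the 83 members, 33 were lower and 3 higher with CPM, 14 and 6 with TMM and 12 and 7 with median-of-ratios. The background with CPM was 34.7% lower and 23.2% higher over all genes, and 24.4% lower and 26.8% higher at 50 CPM or more. Lower calls, at 39.8% of members, were thus near the share of all genes and above that of genes at 50 CPM or more, while higher calls, at 3.61% (*Rpl9*, *Rpl22l1* and *Rpl7a*), were below both. The background at 50 CPM or more was 17.1% lower and 33.4% higher with TMM, and 15.8% and 35.2% with median-of-ratios, so that the excess of lower calls over it was seen with CPM only among these 3 scalings. Medians of -0.43 for the large and -0.40 for the small subunit differed by -0.03, with an SD among members of 0.42.

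**Figure D2:**
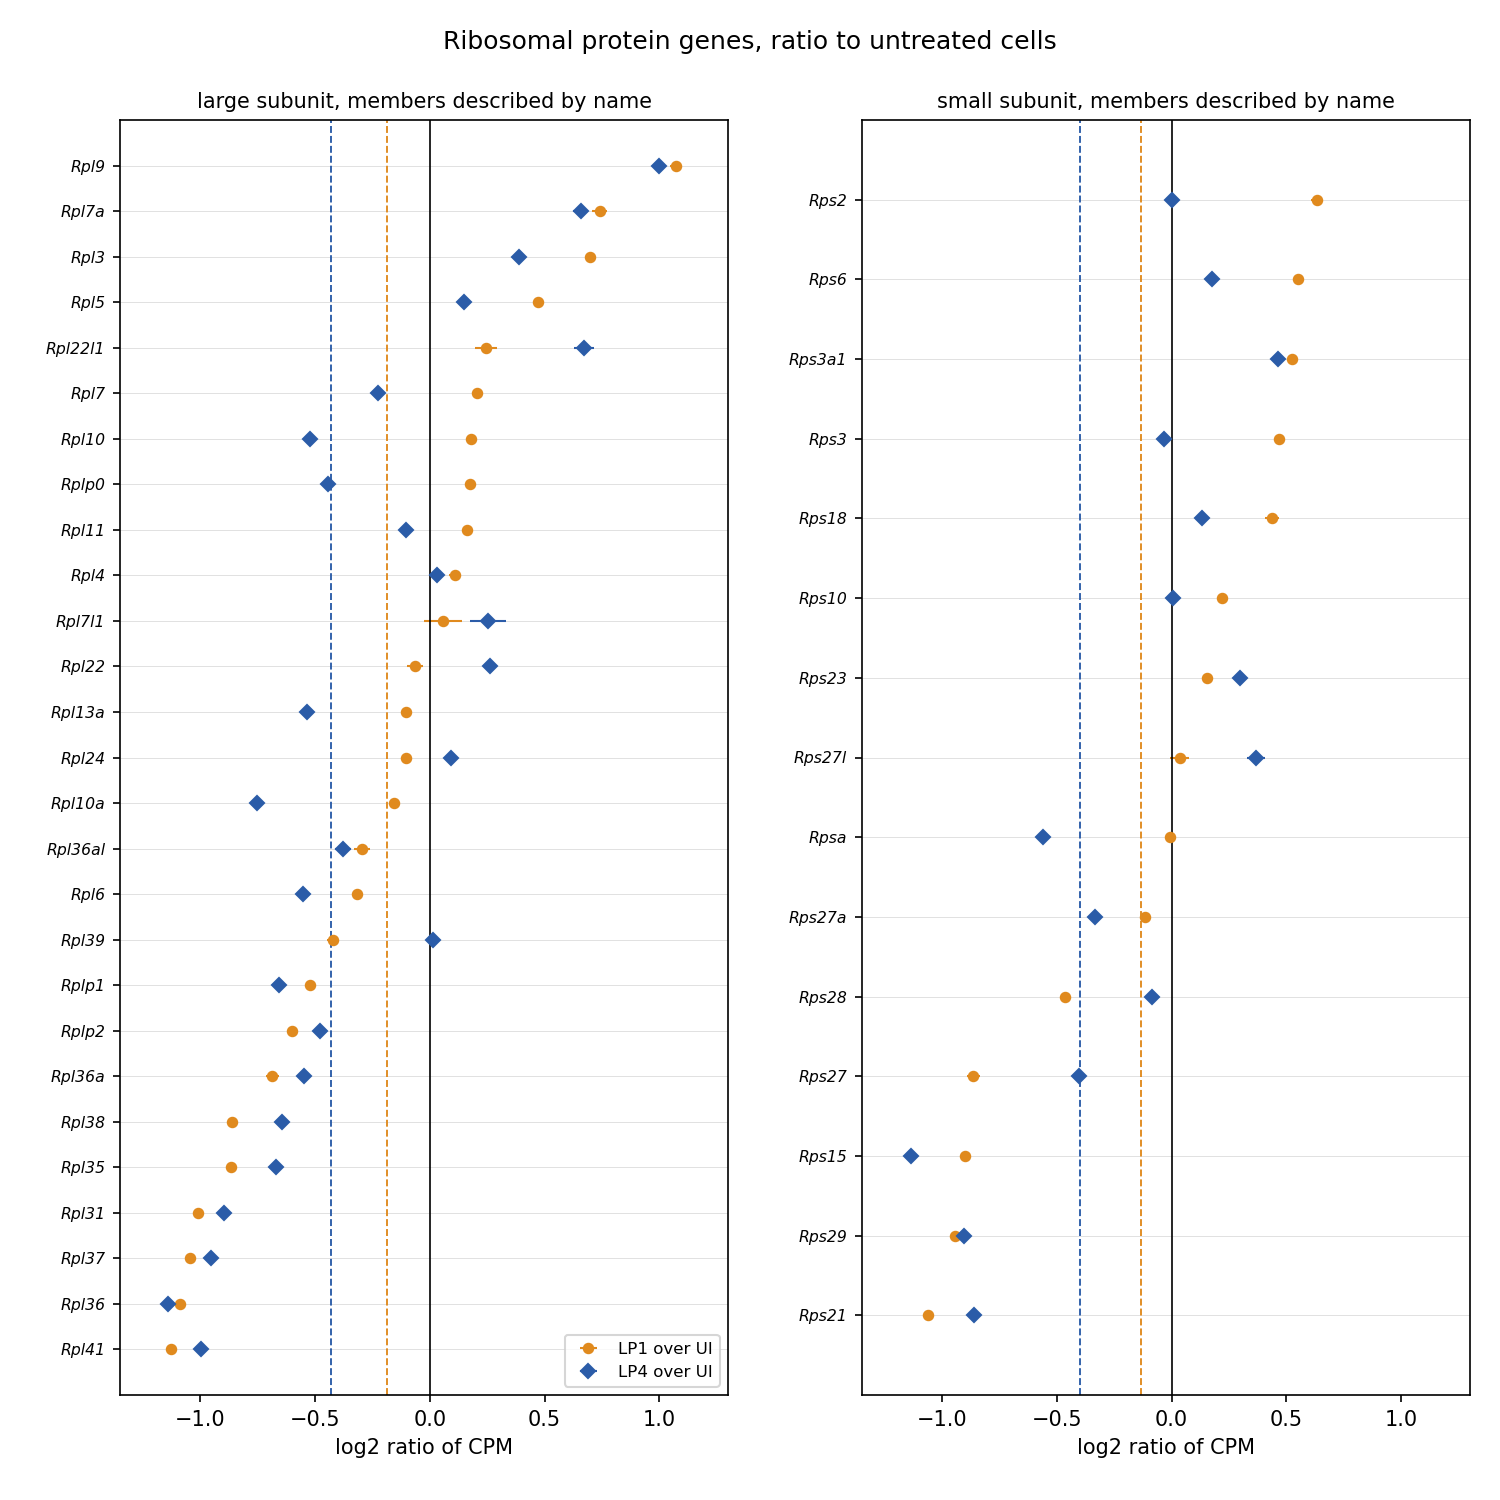
Log2 ratio of CPM to UI for the members with at least 50 CPM that are described by name, large subunit on the left and small subunit on the right, ordered by LP1 over UI. Circles are LP1 over UI, diamonds LP4 over UI, and horizontal bars 95% counting intervals, mostly narrower than the symbols. Dashed lines mark the median over all members of the subunit. *Rpl9*, *Rpl7a*, *Rpl3*, *Rps3a1* and *Rpl22l1* lie right of 0 in both comparisons, and *Rpl41*, *Rpl36*, *Rpl37*, *Rps21* and *Rps29* lie at the left end.

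Between 1 and 4 hours the median ratio of LP4 over LP1 was -0.12, beside -0.11 for all genes, and it turned to 0.0095 under median-of-ratios scaling, which moves all genes by 0.13. Of the members 13 were lower and 1 higher (*Rpl3l*, with 40 UMIs in all), against backgrounds of 29.1% and 21.3% over all genes and 18.2% and 22.4% at 50 CPM or more. With TMM scaling the counts were 4 lower and 5 higher (background at 50 CPM or more 14.3% and 26.5%), and with median-of-ratios scaling 2 and 6 (13.2% and 28.3%). Large and small subunit medians were -0.08 and -0.16, a difference of 0.08. The comparisons with UI share that library, so their values are set side by side here and not correlated.

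Over the 3 libraries, 49 members had their highest CPM in UI, 27 in LP1 and 7 in LP4. The shares of all genes highest or lowest in each library are not given here. Counts of this kind therefore cannot be read as particular to members. The group highest in UI held the shorter reading frames, with a median coding length of 399 bases, and the group highest in LP1 the longer ones, with 633 bases. The 7 genes highest in LP4 were *Rpl22*, *Rpl24*, *Rpl39*, *Rps23* and the paralogues *Rpl22l1*, *Rpl7l1* and *Rps27l*. Members lowest in UI, which numbered 14, were *Rpl3*, *Rpl4*, *Rpl5*, *Rpl7a*, *Rpl9*, *Rps2*, *Rps3a1*, *Rps6*, *Rps10*, *Rps18*, *Rps23* and these 3 paralogues.

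The members that moved against the rest are led by *Rpl9* (chr5:65388364-65391444), whose protein lies at the base of the stalk of the large subunit. Its level was 483 CPM in UI (476 to 491), 1017 in LP1 (1008 to 1025) and 966 in LP4 (958 to 974). The treated libraries thus stood well above UI and near each other. The ratio to UI was 2.10-fold in LP1 (log2 1.07, 1.05 to 1.10) and 2.00-fold in LP4 (log2 0.999, 0.97 to 1.02). The files also count *Rpl9-ps6*, a processed copy, at 3.64, 7.13 and 6.29 CPM, and reads from such copies and from *Rpl9* may not have been told apart.

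*Rpl7a*, a large subunit protein also involved in pre-rRNA processing, had 299 CPM in UI, 499 in LP1 and 471 in LP4. Both treated libraries were higher, by log2 0.74 (0.71 to 0.77) and 0.66 (0.62 to 0.69). *Rpl3*, which lies beside the peptidyl transferase centre, had 651, 1057 and 852 CPM. It was highest at 1 hour and in between at 4 hours, with ratios to UI of 0.70 (0.68 to 0.72) and 0.39 (0.37 to 0.41).

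In the small subunit, *Rps2*, a protein near the mRNA entry channel, had 549 CPM in UI, 851 in LP1 and 550 in LP4. It was higher at 1 hour by log2 0.63 (0.61 to 0.66) and close to UI at 4 hours, at 0.0029 (-0.02 to 0.03), where the sign turned with the scaling. *Rps6*, the substrate of the S6 kinases, had 750, 1097 and 847 CPM, with ratios of 0.55 (0.53 to 0.57) and 0.18 (0.16 to 0.20). *Rps3a1*, at the mRNA exit side, had 551, 793 and 760 CPM. It kept most of its difference at 4 hours, with ratios of 0.53 (0.50 to 0.55) and 0.46 (0.44 to 0.49).

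Below the limit for a call but against the median at 1 hour were *Rpl5*, which binds 5S rRNA, at 0.47 (0.45 to 0.50), and *Rps3*, a repair and mRNA entry protein, at 0.47 (0.45 to 0.49). At 4 hours their ratios to UI were 0.15 and -0.04. *Rpl11*, the partner of *Rpl5* on 5S rRNA and on Mdm2, had 1339, 1500 and 1246 CPM, with ratios of 0.16 and -0.10. The sign of the last value turned with the scaling, as did that of *Rps3* at 4 hours. *Rps23*, a protein of the decoding centre, had 1322, 1471 and 1624 CPM, and its 4-hour ratio of 0.30 (0.28 to 0.31) was above its 1-hour ratio of 0.15. In all, 28 members had an LP1 ratio above 0 with an interval that left out 0, and 14 had such an LP4 ratio. Small ratios meet this rule at such counts, as *Rpl4* did at 4 hours with 0.03 (0.003 to 0.06), and the share of all genes under it is not given here. Whatever the interval, 31 and 17 of the 83 members were above 0, beside 1536 of 3345 and 1840 of 3727 genes with at least 50 CPM.

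The lowest ratios belonged mostly to genes of small proteins. *Rpl41*, the shortest ribosomal protein, had 3827 CPM in UI, the highest level of any member there, 1751 in LP1 and 1915 in LP4. UI stood far above both treated libraries, with ratios of -1.13 (-1.14 to -1.12) and -0.999 (-1.01 to -0.99). *Rpl36*, of the large subunit, had 1531, 721 and 695 CPM and the lowest 4-hour ratio, -1.14 (-1.16 to -1.12), after -1.09 at 1 hour.

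*Rps21* had 1295 CPM in UI, 621 in LP1 and 713 in LP4, with ratios of -1.06 and -0.86. *Rpl37*, a zinc-binding protein, had 1544, 748 and 797 CPM, with ratios of -1.05 and -0.95. *Rpl31*, beside the polypeptide exit tunnel, had 1049, 521 and 563 CPM, with ratios of -1.01 and -0.90. For these 3 genes the level was lowest at 1 hour and slightly higher at 4 hours. *Rps29*, another zinc-binding protein, had 2946, 1531 and 1574 CPM, with ratios of -0.94 and -0.90. *Rps15*, of the small subunit head and with 435 coding bases, had 1750, 938 and 797 CPM. Like *Rpl36*, it had its lower value at 4 hours, at -0.90 and then -1.14.

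**Figure D3:**
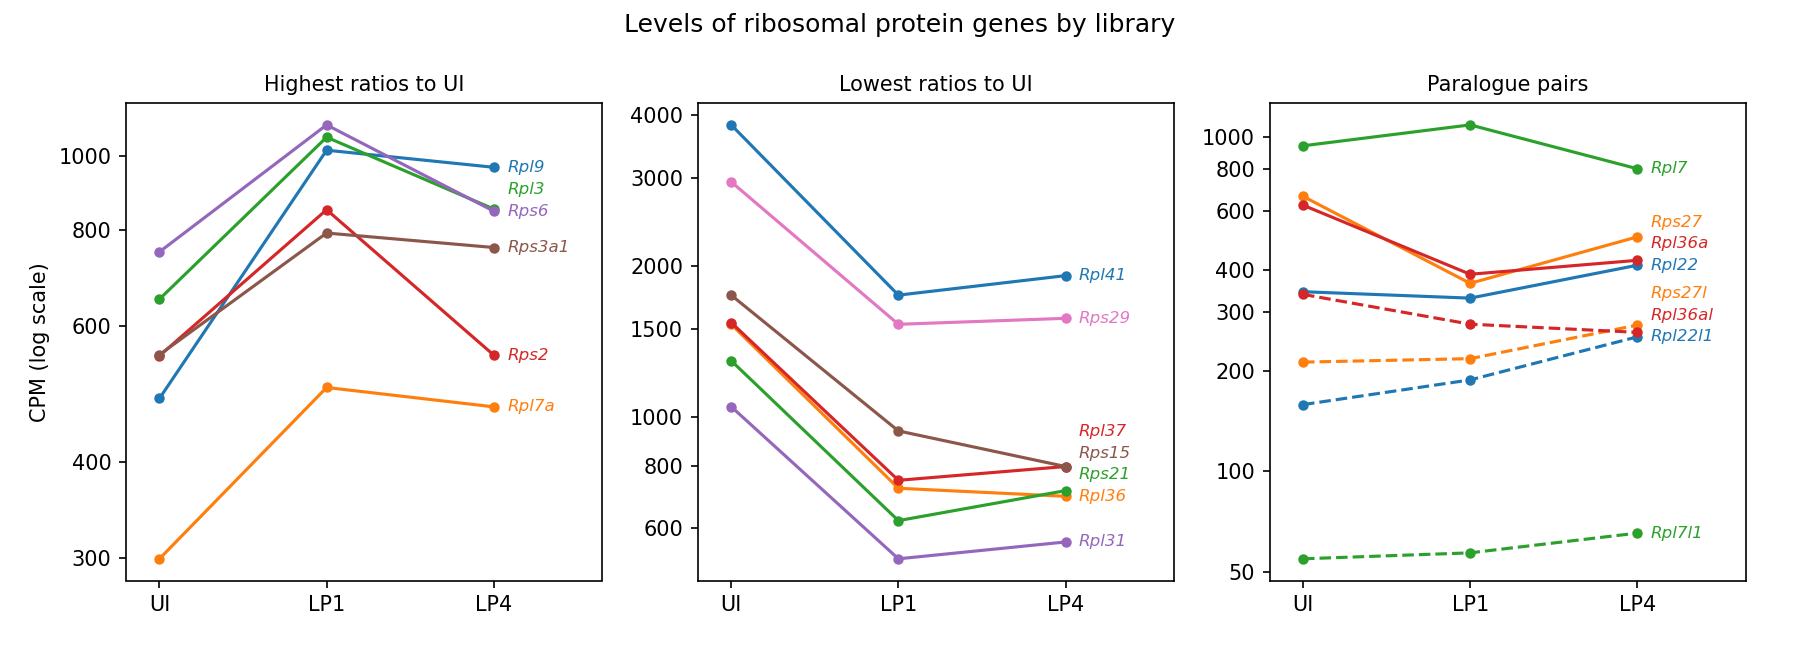
CPM on a log scale in UI, LP1 and LP4 for members with the highest ratios to UI (left), the lowest ratios to UI (middle) and for 4 paralogue pairs (right, the standard gene as a solid line and its paralogue as a dashed line of the same colour). *Rpl9* goes from 483 to 1017 and 966 CPM and *Rpl41* from 3827 to 1751 and 1915 CPM, while *Rpl22l1* is highest in LP4 at 252 CPM.

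Paralogues and their standard partners differed in their ratios. *Rpl22l1*, which can take the place of *Rpl22*, had 158 CPM in UI, 188 in LP1 and 252 in LP4, and was thus lowest in UI and highest in LP4. Its ratios to UI were 0.25 (0.20 to 0.29) and 0.67 (0.63 to 0.72). *Rpl22* had 344, 330 and 413 CPM, with ratios of -0.06 (-0.10 to -0.03) and 0.26 (0.23 to 0.29). The intervals of the pair did not overlap in either comparison.

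*Rps27l*, a p53-induced paralogue, had 212, 217 and 274 CPM, with ratios of 0.03 (-0.01 to 0.08) and 0.37 (0.33 to 0.41). *Rps27* had 664, 365 and 502 CPM and was lower than UI in both treated libraries, at -0.86 (-0.89 to -0.84) and -0.40 (-0.43 to -0.38). *Rpl7l1* had 54.8, 57.1 and 65.4 CPM, with a 4-hour ratio of 0.26 (0.18 to 0.33), while *Rpl7* had 940, 1085 and 803 CPM and a 4-hour ratio of -0.23. *Rpl36a* (625, 388 and 427 CPM) and *Rpl36al* (338, 275 and 260 CPM) were both lower in the treated libraries, at -0.69 and -0.30 after 1 hour and -0.55 and -0.38 after 4 hours. *Rpl3l*, known from muscle, and *Rpl39l*, known from testis, had 40 and 47 UMIs in all, and their 4-hour intervals of -1.80 to 0.43 and -1.57 to 0.52 leave the direction unknown. The 1-hour signs of *Rpl22*, *Rps27l* and *Rpl7l1* turned with the scaling or choice of cells.

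*Rplp0*, the scaffold of the stalk that recruits elongation factors, had 2196 CPM in UI, 2480 in LP1 and 1613 in LP4, with ratios of 0.18 and -0.45. Its partners *Rplp1* and *Rplp2* were lower at both times, at -0.52 and -0.65 for *Rplp1* and -0.60 and -0.48 for *Rplp2*. *Rpsa*, also known as a laminin receptor, had ratios of -0.0082, whose sign turned with the scaling or choice of cells, and -0.56. *Rpl13a*, which joins the interferon-induced GAIT complex that silences inflammatory mRNAs, had 1179, 1098 and 813 CPM, with ratios of -0.10 and -0.54. *Rps27a*, made as a fusion with ubiquitin, had 2438, 2251 and 1934 CPM, with ratios of -0.11 and -0.33.

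From 1 to 4 hours the ratios of at most -0.60 included those of *Rpl10*, a late-joining large subunit protein, at -0.70 (-0.72 to -0.68), *Rps2* at -0.63, *Rplp0* at -0.62 and *Rpl10a* at -0.60. *Rpl10* had 1041 CPM in UI, 1179 in LP1 and 726 in LP4, so that it was above UI at 1 hour and below it at 4 hours. The highest among members with at least 50 CPM were *Rps27* at 0.46, *Rpl39*, a protein of the exit tunnel, at 0.44, *Rpl22l1* at 0.43, *Rps28* at 0.38 and *Rps27l* at 0.33. *Rpl39* had 868 CPM in UI, 647 in LP1 and 876 in LP4, so that LP4 was close to UI, at 0.01, with a sign that turned with the scaling.

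A property that the choice of members did not use, the coding length of the gene, ran along with these ratios. It was taken without the stop codon from one transcript per gene in GENCODE vM21. Over the 77 standard members, coding length and the ratio of LP1 over UI had a Spearman correlation of 0.83 (Pearson with log2 length 0.75). It was 0.85 over the 46 large and 0.80 over the 31 small subunit genes. For LP4 over UI it was 0.39, and for LP4 over LP1 it was -0.78. These values are a description across genes, which share the libraries, their depth and their scaling and are not replicates.

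By bands of coding length, the median LP1 ratio of members was -0.90 in the 6 shortest (75 to 210 bases, 4 lower), -0.999 in the next 5, up to 300 bases (4 lower), and -0.51 to 400 bases (9 of 18). It was -0.20 to 500 bases (3 of 22 lower), 0.15 to 600 bases (0 of 8), 0.06 to 750 bases (0 of 11) and 0.21 above that (1 of 13, *Rpl3l*). The 4 lower calls among the 6 shortest include *Rpl39l*, at -0.97 (-2.18 to 0.20). It and *Rpl3l* are under 50 CPM, a limit set for the other genes given below but not for the members in these bands. Higher calls were 0 of the 51 members up to 500 bases and 4 of the 13 above 750 bases. For LP4 over LP1 the order was turned round, from 0.30 in the 6 shortest to -0.49 between 600 and 750 bases. The LP1 library stands in both ratios, on opposite sides, so the turned order is not a separate result.

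Other genes in the same bands had a higher median with each longer band up to 600 bases, over a smaller range than the members. Among other protein-coding genes with at least 50 CPM, the median LP1 ratio was -0.24 in the band of the 6 shortest members (n = 42), -0.19 from there to 300 bases (n = 86), -0.02 to 400 bases (n = 148) and 0.07 to 500 bases (n = 158). It was 0.09 to 600 bases (n = 183) and 0.06 to 750 bases (n = 272). Lower calls made up 35.7%, 27.9%, 16.9% and 6.96% of these other genes in the first 4 bands, and 0% and 1.47% in the next. Higher calls made up 16.7%, 17.4%, 10.1% and 17.7% in the first 4 bands, and 14.2% and 9.93% in the next. Above 750 bases, up to the longest members, 3.27% were lower and 5.26% higher. Over the 617 of these genes with a coding length up to 600 bases, the Spearman correlation of length and LP1 ratio was 0.27, and over all 3233 it was -0.16. For LP4 over LP1 the medians of other genes in the bands up to 750 bases were 0.22, 0.02, -0.13, -0.19, -0.11 and -0.04.

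**Figure D4:**
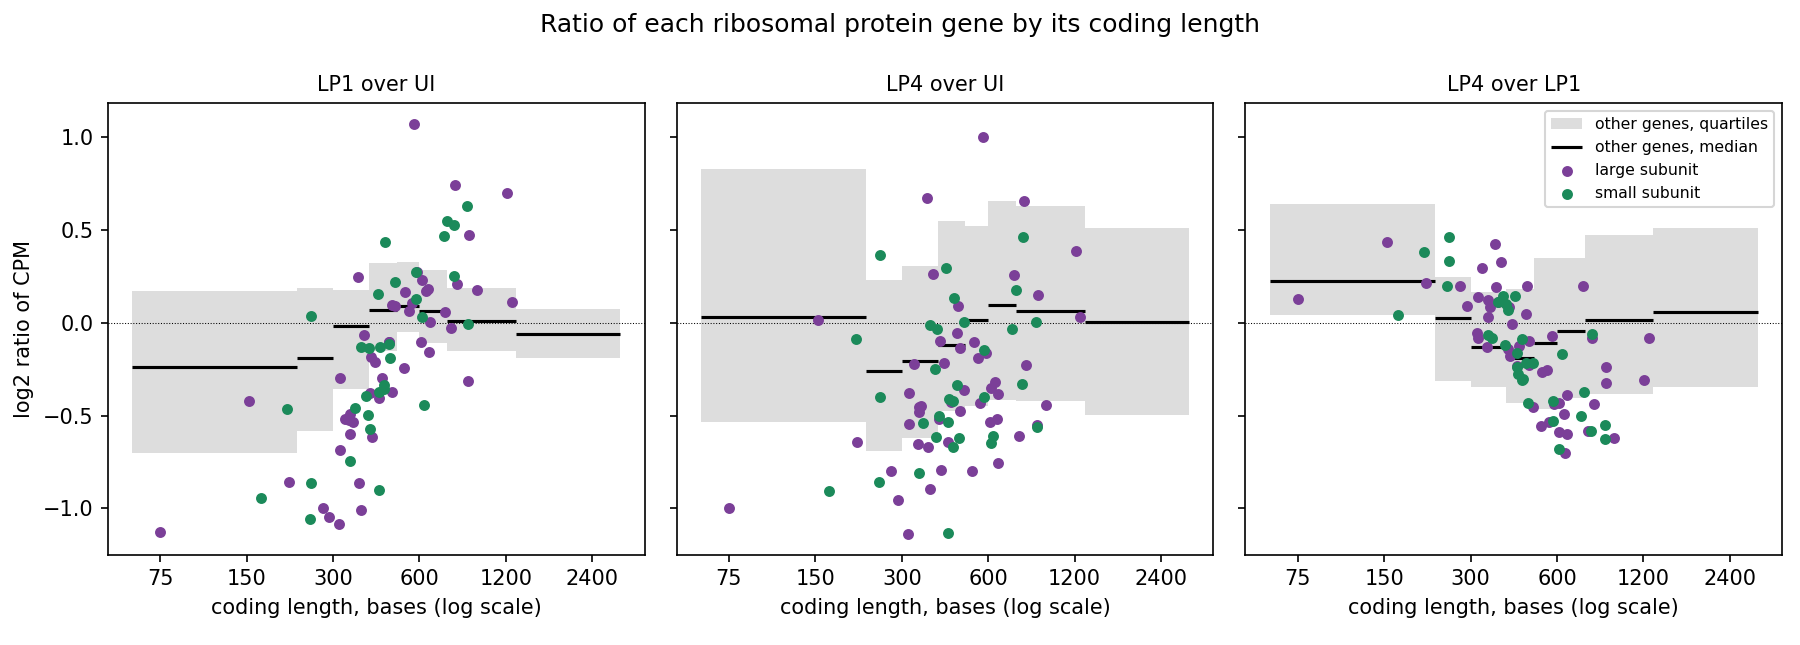
Log2 ratio of CPM against coding length in bases (log scale) for the 81 members with at least 50 CPM, in the 3 comparisons. Points are members, coloured by subunit. Black lines and grey boxes are medians and quartiles of other protein-coding genes with at least 50 CPM in bands of coding length, with the outer bands ending at the panel edge. Points climb from left to right in LP1 over UI (Spearman 0.83 over the standard members) and descend in LP4 over LP1 (-0.78).

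The relation with length was close to this in cells of like depth and mitochondrial share. It was 0.81 for LP1 over UI and -0.79 for LP4 over LP1 in cells with 5000 to 15000 UMIs, and 0.81 and -0.77 in cells with 2% to 3% mitochondrial UMIs. Over the 68 standard members longer than 300 bases it was 0.78 and -0.72. These checks were chosen after the relation was seen. With 1 library per condition, a length effect of a single library and one of the treatment cannot be told apart.

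Some members stood away from the straight line of LP1 ratio on log2 coding length. *Rpl9* was 1.10 above it, *Rps18* 0.64, *Rpl39* 0.63 and *Rpl7a* 0.51. *Rps15* was 0.65 below it, *Rpl31* 0.65, *Rpl6* 0.63 and *Rpl36* 0.59. *Rps18*, a protein of the small subunit head, had 372, 504 and 408 CPM, with ratios of 0.44 and 0.13. *Rpl6* had 1429, 1149 and 974 CPM and was lower despite 888 coding bases, at -0.32 and -0.55. These genes were named by their distance from the line, after it was drawn.

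At 4 hours the base composition of the reading frame ran along with the ratio about as far as its length did. The GC content of the members' coding sequences ranged from 39.9% in *Rpl22l1* to 61.6% in *Rpl36*, with a median of 52.6%. Over the 77 standard members it had a Spearman correlation of -0.40 with LP4 over UI, -0.32 with LP4 over LP1 and -0.10 with LP1 over UI. Its own correlation with coding length was 0.04. Straight-line fits explained 16.5% of the variance of LP4 over UI with GC content alone, 15.7% with length alone and 32.3% with both. For LP1 over UI the same fits gave 2.11%, 55.9% and 58.1%.

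Members with 45% to 50% GC had a median LP4 ratio to UI of -0.22 (3 of 21 lower), those with 50% to 55% -0.42 (16 of 37) and those with 55% to 60% -0.54 (12 of 21). Other genes with at least 50 CPM showed the same order, at 0.16 (n = 953), -0.10 (n = 1079) and -0.32 (n = 766), with 14.9%, 25.3% and 38.0% lower. The 3 of 21 members lower in the first of these bands is at the share of the other genes there. In each of these bands the members' median was below that of the other genes. The 3 members below 45% GC had a median of -0.46 (1 lower, 1 higher), outside this order. The lower one is *Rpl39l*, and the 12 lower members with 55% to 60% include *Rpl3l*. Both are under 50 CPM, the limit set for the other genes. Other genes there had 0.33 (n = 544), with 8.64% lower and 39.2% higher. Across the 3605 other genes the Spearman correlation of GC content with LP4 over UI was -0.27.

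**Figure D5:**
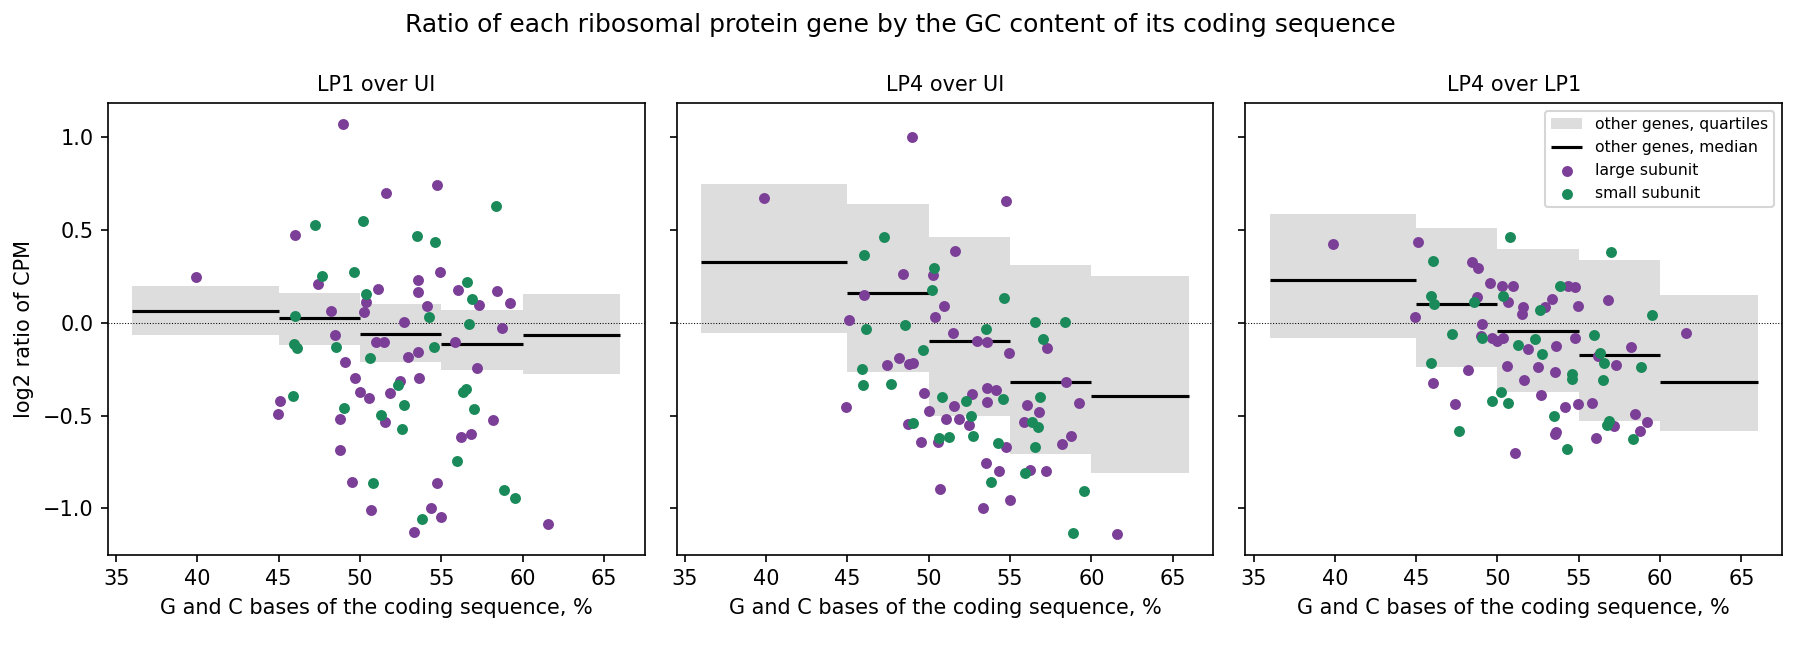
Log2 ratio of CPM against the share of G and C bases in the coding sequence, in percent, for the 81 members with at least 50 CPM. Points are members, coloured by subunit. Black lines and grey boxes are medians and quartiles of other protein-coding genes with at least 50 CPM in bands of GC content, with the outer bands ending at the panel edge. In LP4 over UI the points descend with wide scatter (Spearman -0.40 over the standard members). The outermost in GC content are *Rpl22l1*, at 39.9% and 0.67, and *Rpl36*, at 61.6% and -1.14.

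Parts of the ribosome with names outside the rule were also measured. *Fau*, whose product releases a small subunit protein from a ubiquitin-like fusion, had 3651 CPM in UI, 2138 in LP1 and 1979 in LP4, with ratios of -0.77 and -0.88. *Rack1*, a scaffold on the small subunit, had 1177, 1228 and 864 CPM, with ratios of 0.06 and -0.45.

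Other genes known for TOP mRNAs (14 genes), most of them translation factors beside *Tpt1*, *Npm1*, *Nap1l1* and *Hnrnpa1*, had a median LP1 ratio of 0.20, with 0 lower and 2 higher, and a median LP4 ratio of -0.10, with 1 lower and 2 higher. The highest were *Eif3e* at 0.58 and *Tpt1* at 0.53 after 1 hour, and *Pabpc1*, the poly(A)-binding protein, at 1.04 after 4 hours. *Eef1d*, an elongation factor subunit, was the lowest at 4 hours, at -0.53, followed by *Eef2* at -0.43. These genes thus stood above the ribosomal protein genes in median in both comparisons with UI. They were also longer, with coding lengths from 516 bases (*Tpt1*) to 2574 (*Eef2*) against a median of 453 in members. Members above 750 bases had median ratios to UI of 0.21 in LP1 and -0.23 in LP4. Of all genes with at least 20 UMIs, 14.1% were lower and 8.73% higher at 1 hour, and 34.7% and 23.2% at 4 hours.

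Genes of ribosome assembly and rRNA synthesis (28 genes) had medians of 0.11 after 1 hour (0 lower, 3 higher) and -0.42 after 4 hours (12 lower, 2 higher). Those with at least 50 CPM and the lowest 4-hour ratios were *Gnl3*, nucleostemin, at -0.58 and *Mybbp1a* at -0.57. Below that level, and named after their values were seen, *Nip7* had the highest ratio at 1.46 and *Rrn3* followed at 0.61. The lowest below that level were *Polr1a* at -1.03 and *Pes1* at -0.82. The 14 regulators of ribosomal protein synthesis had medians of -0.01 (1 lower, 0 higher) and -0.49 (6 lower, 3 higher). At 4 hours 42.9% of the assembly genes and of the regulators were lower, against 34.7% of all genes with at least 20 UMIs. Higher were 7.14% of the assembly genes and 21.4% of the regulators, against 23.2%. At 1 hour the shares of all genes were 14.1% lower and 8.73% higher. *Larp1*, which holds TOP mRNAs in a stored state, had 80.1 CPM in UI, 82.5 in LP1 and 189 in LP4, and *Max* had 30.8, 33.5 and 71.4 CPM. Their 4-hour ratios were 1.24 and 1.21, while that of *Eif4ebp1*, a repressor of cap-dependent translation, was -0.74 and that of *Rptor*, the mTOR partner, -0.59. *Myc*, named after its values were seen since its level is under 50 CPM, had 8.46, 9.59 and 1.40 CPM, a 4-hour ratio of -2.59.

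Other complexes chosen by name served as a comparison. Over all genes with at least 20 UMIs, 14.1% (LP1 over UI) and 34.7% (LP4 over UI) were lower, and 8.73% and 23.2% higher. The 78 mitochondrial ribosomal protein genes had medians of 0.04 and -0.30. Of these genes 4 and 27 were lower (5.13% and 34.6%) and 4 and 5 higher (5.13% and 6.41%). The lowest with at least 50 CPM were *Mrps21* at 1 hour (-0.84) and *Mrpl58* at 4 hours (-1.37). The 86 nuclear genes of the respiratory chain, many of them short, had -0.16 and -0.41. Lower calls were 26 and 36 (30.2% and 41.9%), and higher calls 7 and 10 (8.14% and 11.6%). *Ndufa2*, of complex I, had ratios of -1.11 and -1.01 and *Uqcr11*, of complex III, -1.10 and -1.09, while *Atp5g2*, of ATP synthase, had 1.10 and 0.83. The 39 proteasome genes had 0.15 and 0.01, with 1 and 3 lower and 3 and 10 higher, and the immunoproteasome subunit *Psmb9* had the highest 4-hour ratio, at 1.55. The respiratory chain genes were thus close to the cytosolic ribosomal protein genes in median in both comparisons with UI, and the proteasome genes were higher. At 4 hours the lower share of the mitochondrial ribosomal protein genes was at that of all genes.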

How the data were processed

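Single-cell RNA of 1 UI, 1 LP1 and 1 LP4 library was analysed. The authors made the values with Cell Ranger (7.1.0 per the file headers) on mm10, and the deposited values are UMI counts of each gene in each barcode, not normalized. Whether reads in introns were counted is not given in the sources used here. A barcode was used if it exceeded 500 detected genes and 500 UMIs and had a mitochondrial share below 5%. Doublets were not removed, and counts were summed per library and divided by their total (CPM). A gene needed 20 UMIs over the kept cells. Members, lists and rules were chosen with earlier results of these data known.

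Members named are, per comparison, the 5 highest and 5 lowest with at least 50 CPM, those against the median with an interval that leaves out 0 (the 8 largest), those over 0.5 from the median of members, paralogue pairs and *Rplp0*, *Rplp1*, *Rplp2*, *Rpsa*, *Rps6*, *Rps3*, *Rpl5*, *Rpl11*, *Rpl13a* and *Rps27a*, of which those that matter are given. Some are not reported here. Of other lists they are the 2 highest and 2 lowest. Gene positions, coding lengths and GC content are from GENCODE vM21 on GRCm38, with promoters from RefSeq.

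R 4.3.3 with edgeR 4.0.16 (TMM factors only) and Python 3.11.15 with pandas 2.3.3, scipy 1.17.1, numpy 2.4.6 and matplotlib 3.10.9 were used, and the ratios and intervals were tested on simulated data. Alternatives were no mitochondrial limit, TMM, median-of-ratios scaling, CPM without member and mitochondrial genes, means of cell shares, removal of marker-defined cells, cells of 5000 to 15000 UMIs, standard members only, members with 1000 UMIs and a limit of 1. Removal of cells with shared barcodes, and the length relation in subsets of cells, were added after seeing the data.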

Additional observations from a re-analysis of the deposited data

How the results depend on the processing

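No paired analysis was possible because each condition has 1 library and the labels give no replicate numbers, and no library could be left out for the same reason. The medians of members were -0.084 and -0.080 (LP1 over UI), -0.24 and -0.20 (LP4 over UI) and -0.024 and 0.0095 (LP4 over LP1) with TMM and median-of-ratios scaling, which differ from CPM by 1 factor per library. The counts of lower members with these scalings were 14 and 12 (LP4 over UI) and 4 and 2 (LP4 over LP1), and of higher members 6 and 7, and 5 and 6. For LP1 over UI they were 18 and 17 lower and 9 higher with either, where 3.62% and 3.56% of genes with at least 50 CPM were lower and 7.06% and 7.14% higher. The 18 and 17 include *Rpl3l* and *Rpl39l*, which are under 50 CPM and so outside that background. Members with a ratio below and above 0 were 66 and 17 for LP4 over UI with CPM and 55 and 28 with median-of-ratios scaling, and 53 and 30 against 40 and 43 for LP4 over LP1.

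In cells with 5000 to 15000 UMIs the medians were -0.12, -0.44 and -0.16, the last with 2 higher members, and the large minus small differences were -0.10 for LP4 over UI and 0.045 for LP4 over LP1. There the median of all genes for LP4 over UI moved by -0.10. Means of cell shares gave medians of -0.44 for LP4 over UI and -0.14 for LP4 over LP1, where the subunits differed by 0.059. CPM without member and mitochondrial genes gave -0.43 for LP4 over UI. With members of at least 1000 UMIs the LP1 median was -0.13 and its subunit difference -0.023, and 0 members were higher for LP4 over LP1. With standard members alone the LP4 over LP1 median was -0.14, the subunit difference 0.038 and the higher count 0. A limit of 1 left 6 lower and 1 higher (LP1 over UI), 2 and 0 (LP4 over UI), and 0 and 0 (LP4 over LP1), against 0.508% and 0.837%, 8.75% and 13.0%, and 6.80% and 11.7% of genes with at least 50 CPM. The 6 lower include *Rpl3l*, with 40 UMIs in all, which is under 50 CPM and so outside that background. The causes were not tested beyond what each alternative is made of. The other 90 values moved by less than the counting interval or stayed within 1.5 times, those without the mitochondrial limit, without marker-defined cells and without shared barcodes among them.

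Counting error is small for most members, widest for *Rpl3l* and *Rpl39l* with 40 and 47 UMIs, then for *Rpl7l1*. The spread between cultures was not measured.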
